A study of Homo sapiens with 12 samples.

Results

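The 10 genes described here encode amino acid transporters of the plasma membrane: SLC7A11, SLC7A5, SLC3A2, SLC7A1, SLC7A2, SLC6A9, SLC1A4, SLC1A5, SLC38A1 and SLC38A2. They were chosen by name with earlier results of these data known, so their counts do not describe an independently chosen set. Each was found through its Ensembl identifier, and they are 10 of the 58735 genes in the count table. RNA came from OCI-AML2, an established human acute myeloid leukemia cell line grown in RPMI medium with serum, after lentiviral delivery of a CRISPR guide. The guides sgUTX_2 and sgUTX_4 were aimed at KDM6A, which encodes the H3K27 demethylase UTX, and these cells are labelled UTX knockout. The control guide sgLuc carries the label WT. Each of these cell populations received either 1 µM SGC0946, an inhibitor of the H3K79 methyltransferase DOT1L, or the solvent DMSO, and all were collected at day 6. The 12 libraries made up 6 guide and treatment pairs, with 2 libraries in each. Both UTX guides together gave 4 sgUTX libraries per treatment, set against 2 sgLuc libraries. All controls carried the sgLuc guide, so a difference between genotypes cannot be told apart from a difference particular to the sgLuc cells. Whether each population was a clone or a pool is not given in the sources used here.

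Cells take up amino acids through carriers that differ in what they move and in what drives them. SLC7A5 (LAT1, large neutral amino acids such as leucine) and SLC7A11 (xCT, cystine in exchange for glutamate) are light chains that reach the membrane only when bound to the heavy chain SLC3A2 (CD98hc). SLC7A1 and SLC7A2 (CAT1 and CAT2) carry arginine and lysine, SLC6A9 (GlyT1) carries glycine with sodium and chloride, SLC1A4 (ASCT1) and SLC1A5 (ASCT2) exchange small neutral amino acids and, for SLC1A5, glutamine, and SLC38A1 and SLC38A2 (SNAT1 and SNAT2) are sodium-coupled carriers of glutamine and alanine. Several of these genes are known targets of ATF4, the transcription factor of the amino acid and endoplasmic reticulum stress responses, which binds C/EBP-ATF response elements. SLC7A11 is also a known target of NRF2, which binds antioxidant response elements, and SLC7A5 and SLC1A5 are known targets of MYC, which binds E-boxes.

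Promoter sequence was read because the 10 genes moved together in these libraries. RefSeq windows on GRCh38.p14, each from 250 bases before to 50 bases after an annotated transcript start, were matched by symbol for 8 of the 10 genes and numbered 14 in all. SLC7A11 and SLC7A2 had no entry. Both strands were searched for TGATGNAA (the core of a C/EBP-ATF response element), TGACNNNGC (the core of an antioxidant response element) and CACGTG (the E-box). The first motif was found in 5 of the 14 windows, which belong to 5 of the 8 genes, SLC1A4, SLC3A2, SLC38A1, SLC7A1 and SLC1A5. Across all RefSeq promoter windows of the same length, 3.62% of 35116 windows and 4.46% of 27305 genes held it. The 5 matches are given as 30 bases of the gene's strand, 5′ to 3′, with the motif in capitals. In SLC1A4 and SLC3A2 the motif lies on the other strand, so the capitals give its reverse complement.
SLC1A4: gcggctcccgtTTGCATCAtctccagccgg
SLC3A2: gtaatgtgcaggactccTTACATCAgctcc
SLC38A1: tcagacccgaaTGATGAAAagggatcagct
SLC7A1: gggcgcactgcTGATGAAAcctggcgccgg
SLC1A5: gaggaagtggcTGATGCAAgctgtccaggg
These sites lie at chr2:64989381-64989410 on the plus strand, chr11:62881719-62881748 on the plus strand, chr12:46266502-46266531 on the minus strand, chr13:29595663-29595692 on the minus strand and chr19:46784893-46784922 on the minus strand. Counted from the transcript start, where the first transcribed base is 1, the motif begins at base -7 in SLC1A4, 38 in SLC3A2, -4 in SLC38A1, 8 in SLC7A1 and -97 in SLC1A5.

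The other 2 motifs were found in fewer of the 8 genes. TGACNNNGC was found in SLC3A2, SLC7A1, SLC7A5 and SLC1A5, 4 of the 8 genes and 4 of the 14 windows. Of all genes 16.1% and of all windows 13.4% held it. CACGTG was found in SLC7A5 and SLC1A5, 2 of the 8 genes and 2 of the 14 windows, against 8.77% of all genes and 7.26% of all windows. The SLC3A2 match and the SLC7A5 E-box are shown because those genes form the LAT1 heterodimer.
SLC3A2, antioxidant response element core: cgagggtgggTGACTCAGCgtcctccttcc
SLC7A5, E-box: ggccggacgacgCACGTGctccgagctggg
They lie at chr11:62881652-62881681 on the plus strand, with the motif from base -37, and at chr16:87869620-87869649 on the minus strand, with the motif from base -130. The SLC3A2 letters TGACTCAGC also hold TGACTCA, the motif that AP-1 binds. The windows of SLC6A9 and SLC38A2 held none of these letters. A match is a run of letters in the genome and no measurement of binding was made here.

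**Figure D1:**
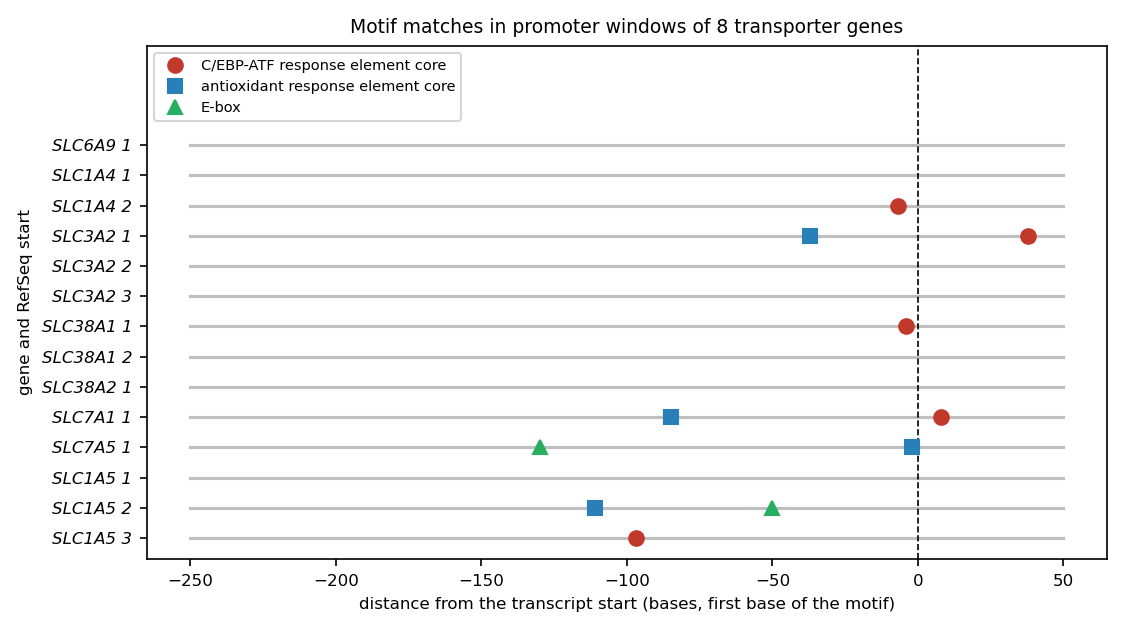
Positions of the 3 motifs in the 14 RefSeq promoter windows of 8 transporter genes. The x axis is the distance in bases of a motif's first base from the annotated transcript start (dashed line), each grey line is 1 window, and windows of 1 gene are numbered. The C/EBP-ATF response element core (red circles) appears in 5 windows, the antioxidant response element core (blue squares) in 4 and the E-box (green triangles) in 2.

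Total counts per library lay between 15480493 and 23262141. Genes of cytoplasmic ribosomal proteins took 11.1% to 12.2% of counts in sgUTX SGC0946 libraries, 11.2% to 12.04% in sgUTX DMSO libraries, 13.0% to 13.2% in sgLuc SGC0946 libraries and 17.8% to 19.0% in sgLuc DMSO libraries. KDM6A averaged 15.2 ± 1.03 CPM with sgUTX_2 and 46.0 ± 4.03 CPM with sgUTX_4, against 34.8 ± 0.41 CPM with sgLuc, all in SGC0946 (SD, n = 2 each). In DMSO it averaged 15.1 ± 0.62 CPM with sgUTX_2 and 47.8 ± 2.27 CPM with sgUTX_4, against 29.99 ± 2.91 CPM with sgLuc. The transcript was thus lower than in sgLuc with 1 guide and higher with the other. In DMSO its log2 fold change over sgLuc was -0.99 with sgUTX_2 (edgeR adjusted p = 3.56e-10) and 0.67 with sgUTX_4 (edgeR adjusted p = 1.94e-07). Each direction given for sgUTX thus belongs to libraries that carry a UTX knockout label, and no protein measurement was used. Of 7 myeloid identity markers all averaged at least 1 CPM in each of the 4 groups, and 6 of 8 erythroid markers were at 0 in all 12 libraries. Of the 7 myeloid markers, 5 were called lower and 1 higher in sgUTX than in sgLuc cells with SGC0946, and 4 lower and 1 higher with DMSO. The 6 lymphoid markers summed to 20.9 to 24.9 CPM in sgUTX and 41.5 to 42.7 CPM in sgLuc libraries with SGC0946. With DMSO they summed to 17 to 22 CPM in sgUTX and 38.8 to 39.0 CPM in sgLuc libraries. NKG7 was the largest part of these sums and MS4A1 was at 0 in all 12 libraries. The 4 lymphoid markers tested were called lower in sgUTX cells in both treatments. The 7 epithelial and fibroblast markers summed to 6.64 to 11.5 CPM in sgUTX and 11.1 to 11.2 CPM in sgLuc libraries with SGC0946, and to 2.24 to 3.62 CPM in sgUTX and 12.1 to 13.3 CPM in sgLuc libraries with DMSO, and none of them was at 0 in all 12 libraries. The part of these markers in the results was not tested.

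Levels are given as CPM, counts scaled to a common library total, after TMM scaling, and levels of different genes are compared only per kilobase of exonic sequence. On that scale SLC7A5 was the highest transporter in sgUTX cells, at 170 ± 19.4 CPM per kb in SGC0946 and 257 ± 11.7 CPM per kb in DMSO (SD, n = 4 each). In DMSO the order of the levels in sgUTX cells ran on through SLC1A5 at 169, SLC3A2 at 95.4, SLC38A2 at 88.7, SLC7A1 at 50.8, SLC1A4 at 37.7, SLC38A1 at 35.0, SLC7A11 at 22.4, SLC6A9 at 5.48 and SLC7A2 at 1.63 CPM per kb. The library ranges of SLC3A2 and SLC38A2 overlapped in that group, as did those of SLC1A4 and SLC38A1, so the order within these 2 pairs is not set by the data. In sgLuc cells with DMSO, SLC7A5 was also first at 76.1 CPM per kb, before SLC1A5 at 67.9 and SLC38A2 at 54.8, and SLC7A11 at 3.46, SLC6A9 at 1.04 and SLC7A2 at 0.21 came last. With SGC0946 the sgLuc cells had SLC38A2 first, at 60.6 CPM per kb, ahead of SLC7A5 at 47.1 and SLC1A5 at 42.7, whose ranges overlapped.

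**Figure D2:**
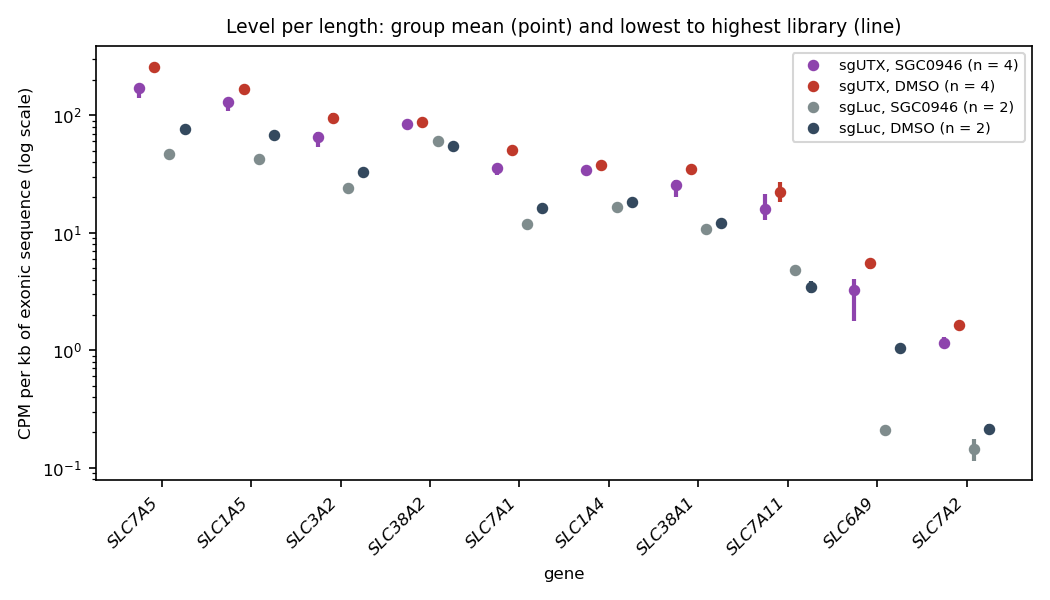
Transcript level of each transporter in CPM per kilobase of exonic sequence (log scale) in sgUTX cells with SGC0946 and with DMSO (n = 4 each) and in sgLuc cells with SGC0946 and with DMSO (n = 2 each). Points are group means and lines run from the lowest to the highest library. SLC7A5 stood at 257 CPM per kb in sgUTX DMSO libraries and SLC7A2 at 1.63. Both sgUTX groups lie above both sgLuc groups for all 10 genes, and the share of all genes that did so was not counted.

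All 10 transporter transcripts were higher in sgUTX than in sgLuc cells with DMSO. The log2 fold change ran from 0.69 for SLC38A2 to 2.91 for SLC7A2. Their median was 1.58, against -0.01 over the 15060 genes tested. In that comparison 28.7% of all genes tested were called higher and 32.3% lower (edgeR quasi-likelihood test, Benjamini-Hochberg adjusted p under 0.05). Taken one guide at a time, 10 of 10 were higher with both guides, where 24.8% of all genes were higher and 28.1% lower with both. In every one of the 10 genes the lowest sgUTX library lay above the highest sgLuc library. The share of all genes separated in this way was not counted. Markers of monocyte maturation moved with the genotype too. Of the 9 tested, 6 were lower and 1, CYBB, was higher in sgUTX cells with DMSO (median log2 fold change -1.96). FCN1 also had a higher mean with DMSO, at 16.5 CPM in sgUTX and 3.92 CPM in sgLuc libraries, and was not called. With SGC0946 all 9 were lower (median -3.78). Their part in the difference of the transporters was not tested. In bulk RNA, fewer cells of a type and less RNA per cell cannot be told apart. Scaled by library size only, all 10 genes were still called higher, with log2 fold changes of 0.97 to 3.18, while the median of all genes moved to 0.26 and the share of higher genes among those called to 66.7%, against 47.1% with TMM scaling.

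**Figure D3:**
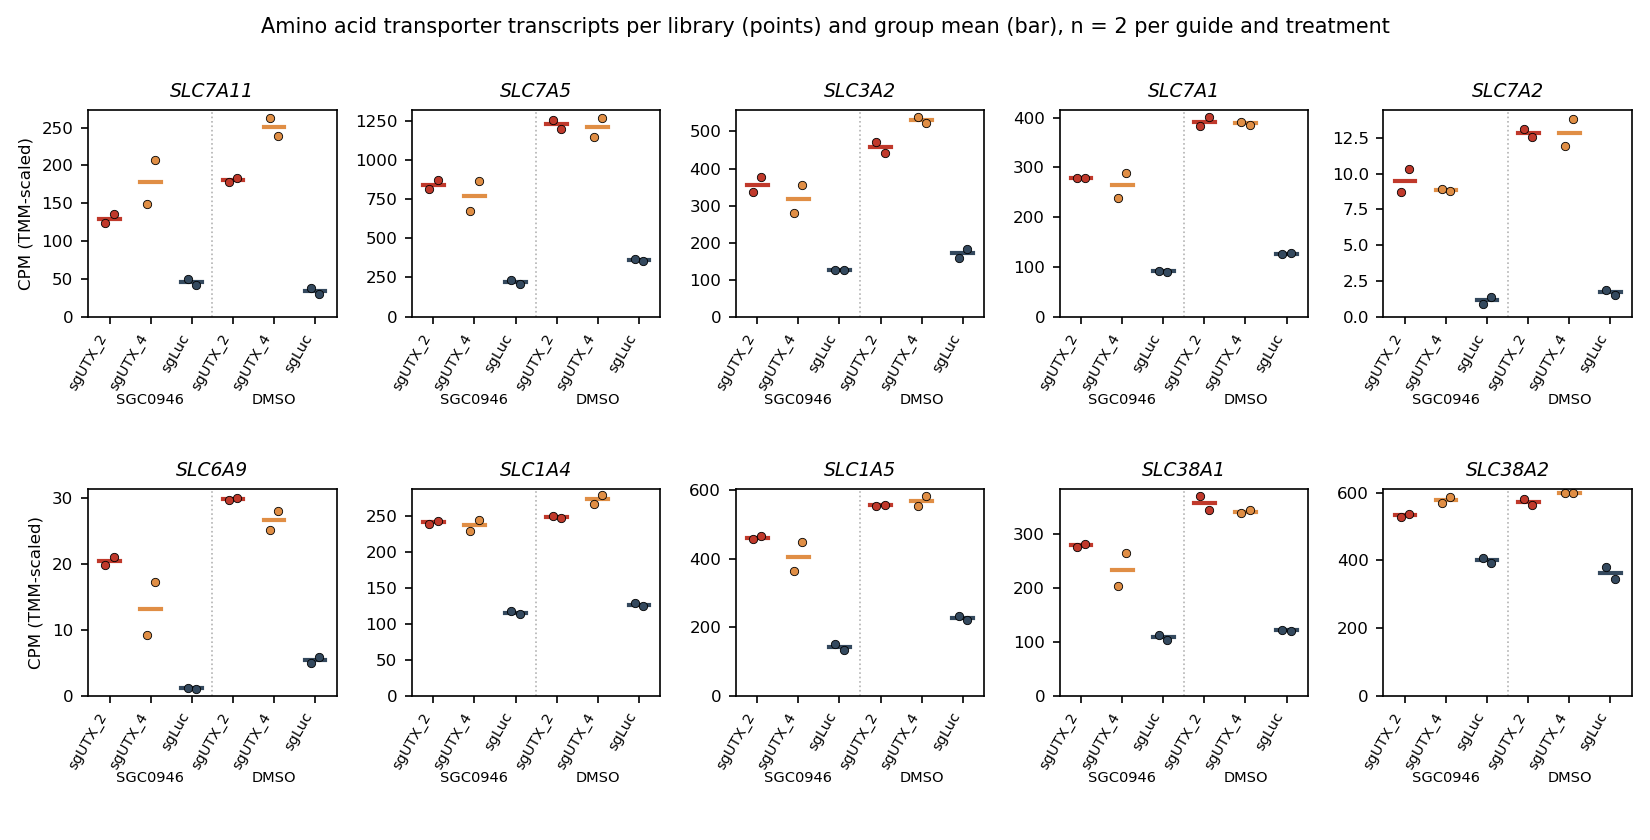
TMM-scaled CPM (y axis, from 0) of the 10 transporter genes in each of the 12 libraries, with the guide and treatment on the x axis. Points are libraries and bars are the means of 2 libraries. For every gene shown the 4 sgUTX libraries of a treatment lie above the 2 sgLuc libraries of that treatment. The share of all genes separated in this way was not counted. SLC7A5 in DMSO is at 1148 to 1269 CPM with the UTX guides and at 357 to 365 CPM with sgLuc.

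The heavy chain and its 2 light chains formed the first group. The cystine carrier SLC7A11 (chr4:138164097-138242349, minus strand; coordinates of genes are from GENCODE 29 on GRCh38) had 178 and 184 CPM with sgUTX_2 and 262 and 239 CPM with sgUTX_4, against 37.3 and 29.5 CPM with sgLuc. It rose 6.43-fold (log2 fold change 2.69, SE 0.29, adjusted p = 4.12e-05), and its sgUTX_4 libraries were the highest. The leucine carrier SLC7A5 (chr16:87830023-87869488, minus strand) had 1256 and 1201 CPM with sgUTX_2 and 1148 and 1269 CPM with sgUTX_4, against 365 and 357 CPM with sgLuc. Its 4 sgUTX libraries lay close together and far above sgLuc, a 3.38-fold rise (log2 fold change 1.76, SE 0.09, adjusted p = 1.43e-12). Their shared heavy chain SLC3A2 (chr11:62856102-62888875, plus strand) had 473 and 443 CPM with sgUTX_2 and 538 and 523 CPM with sgUTX_4, against 158 and 184 CPM with sgLuc (log2 fold change 1.53, SE 0.11, adjusted p = 1.57e-08). The 3 genes did not move in equal measure. Per length, the ratio of SLC7A11 to SLC3A2 was 0.20 to 0.26 in the 4 sgUTX libraries, against 0.09 to 0.13 in the 2 sgLuc libraries, without overlap. The ratio of SLC7A5 to SLC3A2 was 2.33 to 2.96 in sgUTX libraries, against 2.12 to 2.53 in sgLuc libraries, and these ranges overlapped. These ratios were not tested.

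Among the carriers of cationic amino acids, SLC7A1 (chr13:29509410-29595688, minus strand) had 383 and 401 CPM with sgUTX_2 and 391.7 and 386 CPM with sgUTX_4, against 125 and 127 CPM with sgLuc. The 4 sgUTX libraries spanned a narrow range and the fold change was among the most precise of the set (log2 fold change 1.63, SE 0.07, adjusted p = 1.50e-14). Its relative SLC7A2 (chr8:17497088-17570573, plus strand) was far less abundant per length, at 1.63 CPM per kb in sgUTX cells against 50.8 for SLC7A1. SLC7A2 had 13.1 and 12.5 CPM with sgUTX_2 and 11.9 and 13.8 CPM with sgUTX_4, against 1.87 and 1.51 CPM with sgLuc. The 2 sgLuc libraries held as few as 20 counts of it and the sgUTX libraries at least 216. It had the highest fold change of the 10, 7.51-fold (log2 fold change 2.91, SE 0.20, adjusted p = 1.47e-11). The glycine carrier SLC6A9 (chr1:43991500-44031467, minus strand) had 29.8 and 29.98 CPM with sgUTX_2 and 25.2 and 28.1 CPM with sgUTX_4, against 4.92 and 5.83 CPM with sgLuc. It too was scarce in sgLuc cells, and it rose 5.29-fold (log2 fold change 2.40, SE 0.31, adjusted p = 4.09e-05).

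The neutral amino acid exchangers rose less. SLC1A4 (chr2:64988477-65023865, plus strand), which carries alanine, serine and cysteine, had 251 and 248 CPM with sgUTX_2 and 268 and 280.3 CPM with sgUTX_4, against 128 and 125 CPM with sgLuc (log2 fold change 1.05, SE 0.06, adjusted p = 3.43e-12). The glutamine exchanger SLC1A5 (chr19:46774883-46788594, minus strand) had 553 and 557 CPM with sgUTX_2 and 554 and 582 CPM with sgUTX_4, against 233 and 219.9 CPM with sgLuc (log2 fold change 1.31, SE 0.08, adjusted p = 1.69e-11). Both had at least 248 CPM with either UTX guide and at most 233 CPM with sgLuc. SLC38A1 (chr12:46183063-46270017, minus strand), a sodium-coupled glutamine carrier, had 371 and 345 CPM with sgUTX_2 and 339 and 345 CPM with sgUTX_4, against 122 and 120 CPM with sgLuc (log2 fold change 1.53, SE 0.11, adjusted p = 4.67e-09). Its neighbour on the chromosome, SLC38A2 (chr12:46358189-46372867, minus strand), the carrier best known for induction by amino acid shortage, had 580.4 and 564 CPM with sgUTX_2 and 599 and 598 CPM with sgUTX_4, against 379.5 and 344 CPM with sgLuc. SLC38A2 had the smallest fold change of the 10 (log2 fold change 0.69, SE 0.06, adjusted p = 2.98e-09), and its groups still did not overlap.

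Several of these genes share exonic bases with genes on the opposite strand, and the use of strand in counting is not given in the sources used here. SLC1A5 shares 23.4% of its exonic bases with AC008622.2, SLC7A11 8.97% with SLC7A11-AS1, SLC6A9 7.83% with CCDC24 and SLC7A5 5.71% with AC126696.2. These neighbours were at 0.79 CPM or lower in all 12 libraries. SLC7A5P1, a pseudogene copy of SLC7A5, stood at 4.23 to 5.13 CPM in sgUTX DMSO libraries, against 0.61 to 1.18 CPM in sgLuc DMSO libraries. Reads of SLC7A5 and this copy may have been split between them.

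In SGC0946 all 10 transcripts were again higher in sgUTX than in sgLuc cells. The log2 fold change ran from 0.47 for SLC38A2 to 3.98 for SLC6A9, with a median of 1.60 against 0.01 over all genes tested. Of all genes, 27.7% were called higher and 29.3% lower, and with both guides 10 of 10 transporters were higher where 23.3% of all genes were higher and 25.5% lower. The groups again did not overlap for any of the 10, and the share of all genes without overlap was not counted. Scaled by library size only, the 10 remained called higher at 0.66 to 4.16, the median of all genes was 0.20 and the share of higher genes among those called was 65.0%, against 48.6% with TMM scaling.

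The widest gap in SGC0946 was that of SLC6A9, with 19.8 and 21.0 CPM with sgUTX_2 and 9.24 and 17.2 CPM with sgUTX_4, against 1.15 and 0.998 CPM with sgLuc. The sgLuc libraries held as few as 18 counts, and 1 of the sgUTX_4 libraries was well below the other 3 sgUTX libraries (log2 fold change 3.98, SE 0.41, adjusted p = 8.52e-06). SLC7A2 followed, with 8.69 and 10.3 CPM with sgUTX_2 and 8.95 and 8.79 CPM with sgUTX_4, against 0.906 and 1.39 CPM with sgLuc and as few as 15 counts in sgLuc (log2 fold change 2.99, SE 0.21, adjusted p = 2.60e-11). SLC7A11 had 124 and 136 CPM with sgUTX_2 and 149 and 208 CPM with sgUTX_4, against 50.2 and 42.5 CPM with sgLuc, a spread between UTX libraries wider than for most of the set (log2 fold change 1.73, SE 0.27, adjusted p = 5.48e-04). SLC7A5 had 816 and 870.2 CPM with sgUTX_2 and 674 and 867 CPM with sgUTX_4, against 237 and 210.4 CPM with sgLuc (log2 fold change 1.85, SE 0.09, adjusted p = 6.71e-13). For this gene as for SLC3A2, SLC7A1, SLC6A9, SLC1A4, SLC1A5 and SLC38A1, the lowest sgUTX library was the first sgUTX_4 replicate. The 10 genes summed to 2726 CPM in that library and to 3084 to 3290 CPM in the other sgUTX libraries with SGC0946. SLC3A2 had 336 and 376 CPM with sgUTX_2 and 281 and 355 CPM with sgUTX_4, against 125 and 125 CPM with sgLuc (log2 fold change 1.43, SE 0.11, adjusted p = 4.20e-08). Per length, the ratio of SLC7A5 to SLC3A2 was 2.52 to 2.67 in sgUTX libraries, against 1.83 to 2.07 in sgLuc libraries, and did not overlap in this treatment. The ratio of SLC7A11 to SLC3A2 was 0.19 to 0.31 in sgUTX libraries, against 0.18 to 0.22 in sgLuc libraries, and here these ranges overlapped.

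Of the remaining genes in SGC0946, the arginine carrier SLC7A1 had 279 and 279.7 CPM with sgUTX_2 and 238 and 289.7 CPM with sgUTX_4, against 92.7 and 88.9 CPM with sgLuc (log2 fold change 1.58, SE 0.07, adjusted p = 1.76e-14). SLC1A5 had 457 and 465 CPM with sgUTX_2 and 364 and 447 CPM with sgUTX_4, against 151 and 133 CPM with sgLuc (log2 fold change 1.61, SE 0.09, adjusted p = 8.21e-13). Both were higher in each sgUTX library than in either sgLuc library. SLC1A4 had 239 and 244 CPM with sgUTX_2 and 229 and 245 CPM with sgUTX_4, against 118 and 114 CPM with sgLuc (log2 fold change 1.05, SE 0.06, adjusted p = 3.38e-12). SLC38A1 had 277 and 282 CPM with sgUTX_2 and 203 and 264 CPM with sgUTX_4, against 113 and 103 CPM with sgLuc (log2 fold change 1.25, SE 0.11, adjusted p = 5.96e-08). SLC1A4 showed little spread among its UTX libraries and SLC38A1 a wider one. SLC38A2 had 528 and 537 CPM with sgUTX_2 and 568 and 588 CPM with sgUTX_4, against 407 and 393 CPM with sgLuc, the smallest fold change of the set here as in DMSO (log2 fold change 0.47, SE 0.06, adjusted p = 1.10e-06).

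**Figure D4:**
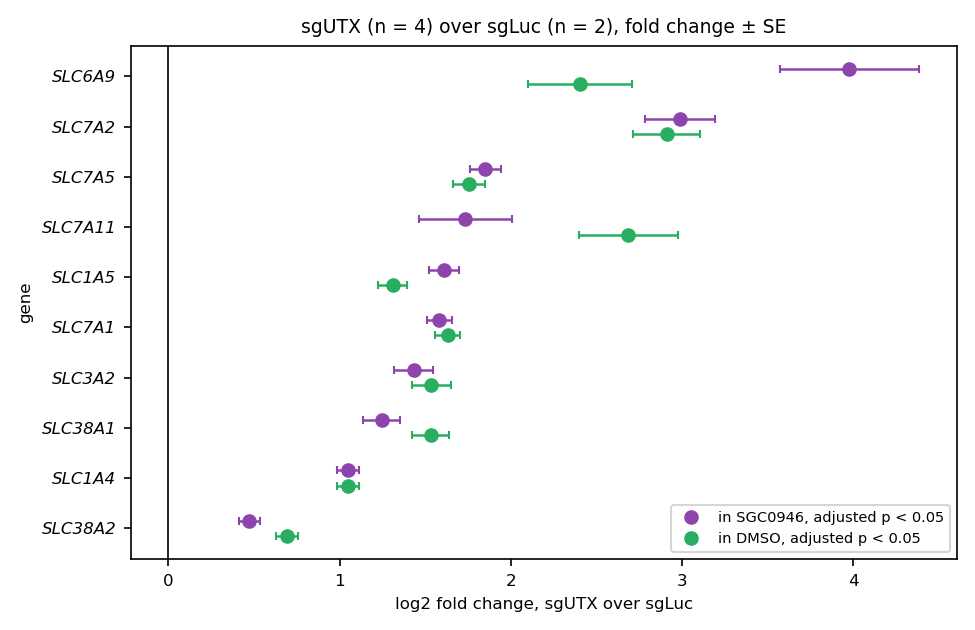
Log2 fold change of sgUTX (n = 4) over sgLuc (n = 2) in SGC0946 and in DMSO for the 10 transporters, ordered by the value in SGC0946. Points are edgeR estimates, bars are ± SE, and all points are called at adjusted p under 0.05. All 20 values lie above 0, from 0.47 for SLC38A2 in SGC0946 to 3.98 for SLC6A9 in SGC0946.

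None of the 10 transporters was called between sgUTX_4 and sgUTX_2 in either treatment by edgeR or by DESeq2. At edgeR adjusted p under 0.05, 3.49% of all genes were called in DMSO and 3.01% in SGC0946. The share of all genes at unadjusted p under 0.05 was not counted. At that unadjusted edgeR threshold there were 3 of the transporters in DMSO and 4 in SGC0946. SLC7A11 was the gene with the highest positive difference in both treatments. In SGC0946 it averaged 178 ± 41.5 CPM with sgUTX_4 and 129.9 ± 8.23 CPM with sgUTX_2 (SD, n = 2 each), a log2 difference of 0.46 (edgeR adjusted p = 0.262). In DMSO it averaged 251 ± 16.3 CPM with sgUTX_4 and 181 ± 4.62 CPM with sgUTX_2, a log2 difference of 0.47 (edgeR adjusted p = 0.230). SLC6A9 went the other way in SGC0946, with 13.2 ± 5.62 CPM with sgUTX_4 and 20.4 ± 0.877 CPM with sgUTX_2 (log2 difference -0.61, edgeR adjusted p = 0.111). The count in SGC0946 rested on single libraries, as transporters were called between the guides once either sgUTX_4 SGC0946 library was left out. In those 2 fits the lone sgUTX_4 library is assumed to vary like the other groups.

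Many of the transporters fell with SGC0946 in both genotypes. In sgUTX cells 7 of the 10 fell with the inhibitor and none rose, where 16.4% of all genes were called lower and 17.4% higher, and their median log2 fold change was -0.48 against 0.003 over all genes. In sgLuc cells 5 of the 10 fell and none rose, where 24.2% of all genes were called lower and 24.7% higher, and the median was -0.46 against 0.001. In 4 of 11 alternatives 1 of the 10, SLC38A2, was called higher in sgLuc cells. The summed level of the 10 genes was 3080 ± 251 CPM in sgUTX cells with SGC0946 and 4118 ± 115 CPM with DMSO (SD, n = 4 each). In sgLuc cells it was 1254 ± 59.4 CPM with SGC0946 and 1534 ± 29.7 CPM with DMSO (SD, n = 2 each). For all 10 genes the lowest sgUTX library with SGC0946 was above the highest sgLuc library with DMSO, and the ratio of the means ran from 1.54 for SLC38A2 to 5.43 for SLC7A2. That last comparison crosses both factors and was not tested, and the share of all genes that did the same was not counted.

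The LAT1 pair fell in both genotypes. SLC7A5 averaged 807 ± 91.9 CPM with SGC0946 and 1218 ± 55.7 CPM with DMSO in sgUTX cells (log2 fold change -0.59, SE 0.07, adjusted p = 7.76e-07). In sgLuc cells it averaged 224 ± 18.8 CPM with SGC0946 and 361 ± 5.91 CPM with DMSO (log2 fold change -0.69, SE 0.10, adjusted p = 6.59e-06). The SLC7A5 groups did not overlap in either genotype. In sgLuc cells this does not set SLC7A5 apart, as 8 transporters lay lower and 2 higher without overlap. Transporters that were not called there, such as SLC38A1 and SLC7A11, were among them. SLC3A2 averaged 337 ± 40.9 CPM with SGC0946 and 494 ± 44.1 CPM with DMSO in sgUTX cells (log2 fold change -0.55, SE 0.09, adjusted p = 1.40e-04). In sgLuc cells SLC3A2 averaged 125 ± 0.218 CPM with SGC0946 and 171 ± 18.4 CPM with DMSO (log2 fold change -0.45, SE 0.12, adjusted p = 0.00764), and this call was lost without sgLuc DMSO replicate 2 (log2 fold change -0.34, edgeR adjusted p = 0.0778, against 1.12e-06 to 0.0778 over all alternatives). SLC7A11, the other light chain, was not called in either genotype, and its mean moved in opposite directions. It averaged 154 ± 37.2 CPM with SGC0946 and 216 ± 41.5 CPM with DMSO in sgUTX cells, where the groups overlapped (log2 fold change -0.49, SE 0.20, adjusted p = 0.0936). Without sgUTX_4 SGC0946 replicate 2 it was called, at -0.66 (edgeR adjusted p = 0.0150, against 0.0150 to 0.204 over its alternatives). In sgLuc cells it averaged 46.4 ± 5.48 CPM with SGC0946 and 33.4 ± 5.58 CPM with DMSO (log2 fold change 0.47, SE 0.31, adjusted p = 0.258).

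Of the cationic and glycine carriers, SLC7A1 fell in both genotypes. It averaged 272 ± 22.7 CPM with SGC0946 and 390.4 ± 7.62 CPM with DMSO in sgUTX cells (log2 fold change -0.52, SE 0.05, adjusted p = 7.14e-08). In sgLuc cells it averaged 90.8 ± 2.72 CPM with SGC0946 and 126 ± 1.49 CPM with DMSO (log2 fold change -0.47, SE 0.08, adjusted p = 3.26e-05). SLC7A2 passed the test in sgUTX cells, at 9.19 ± 0.755 CPM with SGC0946 and 12.9 ± 0.820 CPM with DMSO (log2 fold change -0.48, SE 0.11, adjusted p = 0.00173), and not in sgLuc cells, where it was near 1 CPM (log2 fold change -0.56, SE 0.30, adjusted p = 0.126). SLC6A9 fell in both. It averaged 16.8 ± 5.28 CPM with SGC0946 and 28.3 ± 2.21 CPM with DMSO in sgUTX cells (log2 fold change -0.74, SE 0.19, adjusted p = 0.0132). In sgLuc cells it averaged 1.07 ± 0.105 CPM with SGC0946 and 5.37 ± 0.646 CPM with DMSO, a 4.97-fold lower level (log2 fold change -2.31, SE 0.53, adjusted p = 0.00391).

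Among the neutral exchangers and the SNAT carriers, SLC1A5 fell in both genotypes. It averaged 433 ± 46.6 CPM with SGC0946 and 562 ± 13.6 CPM with DMSO in sgUTX cells (log2 fold change -0.37, SE 0.06, adjusted p = 9.97e-05), and 142 ± 12.9 CPM with SGC0946 and 226 ± 9.01 CPM with DMSO in sgLuc cells (log2 fold change -0.67, SE 0.09, adjusted p = 3.85e-06). SLC38A1 fell in sgUTX cells, at 257 ± 36.4 CPM with SGC0946 and 350.2 ± 14.4 CPM with DMSO (log2 fold change -0.45, SE 0.08, adjusted p = 4.49e-04). In sgLuc cells SLC38A1 was not called (log2 fold change -0.16, SE 0.12, adjusted p = 0.287). SLC1A4 and SLC38A2 passed the test in neither genotype. SLC1A4 had a log2 fold change of -0.13 in sgUTX cells (SE 0.05, edgeR adjusted p = 0.05002) and -0.13 in sgLuc cells (SE 0.07, edgeR adjusted p = 0.144), and 6 of 15 alternatives called the first, among them leaving out sgUTX_2 DMSO replicate 1 or 2 (-0.15 in both, edgeR adjusted p = 0.0357 and 0.0257, against 0.0144 to 0.195 over all 15). SLC38A2 had -0.08 in sgUTX cells (edgeR adjusted p = 0.272) and 0.14 in sgLuc cells (edgeR adjusted p = 0.101). It was called higher in sgLuc cells with DESeq2 (0.17, DESeq2 adjusted p = 0.0431), with library size only (0.24, edgeR adjusted p = 0.00965), with no filter and with 6 groups, against adjusted p of 0.00965 to 0.545 over its 11 alternatives.

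Markers of monocyte maturation moved with the inhibitor as well, with 7 of the 9 tested higher in sgUTX cells and 9 of 9 in sgLuc cells. The summed level of 10 such markers was 607 to 724 CPM in sgUTX SGC0946 libraries, where 8 of 10 averaged at least 1 CPM, and 356 to 427 CPM in sgUTX DMSO libraries, with 6 of 10. It was 2305 to 2323 CPM in sgLuc SGC0946 libraries, with 9 of 10, and 262 to 284 CPM in sgLuc DMSO libraries, with 8 of 10. CD14 averaged 16.8 CPM in sgUTX SGC0946 libraries and 2.20 CPM in sgUTX DMSO libraries, and 556 CPM in sgLuc SGC0946 libraries and 8.60 CPM in sgLuc DMSO libraries. CYBB was the largest part of the sum, at 525 CPM in sgUTX SGC0946 libraries and 355 CPM in sgUTX DMSO libraries, and at 997 CPM in sgLuc SGC0946 libraries and 151 CPM in sgLuc DMSO libraries. The sum in DMSO was thus higher with the UTX guides although most of the markers were lower. None of the 10 was at 0 in all 12 libraries. Their part in the change of the transporters was not tested.

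**Figure D5:**
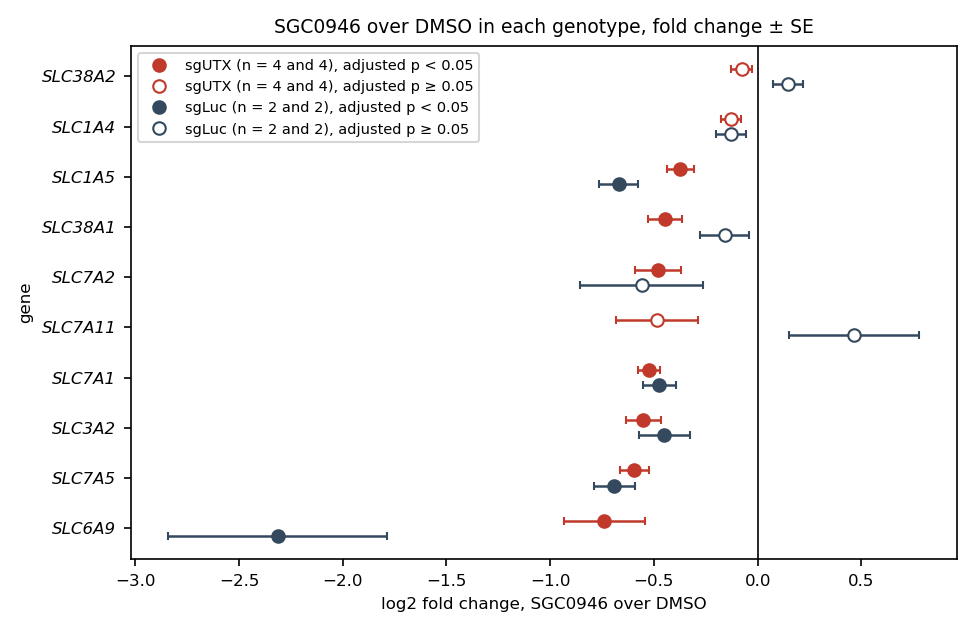
Log2 fold change of SGC0946 over DMSO in sgUTX cells (n = 4 and 4) and in sgLuc cells (n = 2 and 2) for the 10 transporters. Points are edgeR estimates with bars of ± SE, filled where adjusted p was under 0.05 and open otherwise. In sgUTX cells 7 points are filled, all below 0, and in sgLuc cells 5, with SLC6A9 lowest at -2.31.

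The responses to SGC0946 were compared between genotypes as their difference, sgUTX minus sgLuc. Of the 10 genes only SLC1A5 was called, where 18.3% of all genes had a higher difference and 16.5% a lower one. Its log2 fold change was -0.37 in sgUTX cells and -0.67 in sgLuc cells, a difference of 0.30 (SE 0.11, edgeR adjusted p = 0.0469). That call was lost in 15 of 19 alternatives, with differences of 0.21 to 0.39 and adjusted p of 0.00232 to 0.274 over the 19. Leaving out 1 library ended it in 10 of 12 cases and left it in place without sgLuc SGC0946 replicate 1 or sgUTX_4 SGC0946 replicate 1. SLC6A9 had the highest difference, 1.57 (SE 0.57, edgeR adjusted p = 0.0569), and it was called without sgUTX_4 SGC0946 replicate 1, at 1.77 (edgeR adjusted p = 1.72e-05, against 1.72e-05 to 0.203 over its alternatives). SLC7A11 had the lowest, -0.95 (SE 0.37, edgeR adjusted p = 0.0819), and without sgUTX_4 SGC0946 replicate 2 it was called at -1.13 (edgeR adjusted p = 0.0163, against 0.0163 to 0.247). SLC38A2 had a difference of -0.22 (edgeR adjusted p = 0.0556) and was called in 8 of 19 alternatives, 3 of them by leaving out sgLuc DMSO replicate 1, sgUTX_2 DMSO replicate 2 or sgUTX_4 SGC0946 replicate 2. SLC38A1 had a difference of -0.29 (edgeR adjusted p = 0.139) and was called in 2 of 19 alternatives, with no filter and with 6 groups (adjusted p of 0.00231 to 0.367 over the 19). For SLC7A5, SLC3A2, SLC7A1, SLC7A2 and SLC1A4 the difference lay between -0.10 and 0.10. With library size only, the share of higher genes among those called for this difference was 40.6%, against 52.6% with TMM scaling.

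Over the 12 libraries the 45 pairs of transporters had Pearson correlations of log2 CPM from 0.802 to 0.997, with a median of 0.967. These values describe libraries that fall into sgUTX and sgLuc clusters and that share scaling, so they carry no test. Among 12755 genes tested with a mean of at least 1 CPM, the genes most like SLC7A5 were XPOT (0.998), SLC7A1 (0.997) and WDR18 (0.997). Those most like SLC7A11 were SLC38A2 (0.992), PGP (0.990) and C7orf26 (0.989). Those most like SLC7A2 were FPGS (0.993), WDR43 (0.990) and TARBP1 (0.989).

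Other carriers of amino acids moved in both directions. The counts of called genes in this and the following lists stand against 28.7% of all genes higher and 32.3% lower for sgUTX over sgLuc in DMSO, and 27.7% higher and 29.3% lower in SGC0946. For SGC0946 over DMSO they stand against 17.4% higher and 16.4% lower in sgUTX cells, and 24.7% higher and 24.2% lower in sgLuc cells. Of 31 further plasma membrane transporters on the list, 10 passed the filter on low counts, and in DMSO sgUTX cells had 5 of these higher, 3 lower and 2 not called, with a median log2 fold change of 0.22. SLC16A10 (TAT1, aromatic amino acids) was higher at 2.48, while SLC1A3 (a glutamate carrier) fell by 2.01 and SLC43A2 (LAT4, large neutral amino acids) fell by 1.77. In SGC0946 the same list had 5 higher and 5 lower of 10, with SLC7A7 (y+LAT1) at -3.13, SLC43A2 at -3.03 and SLC16A10 at 2.66. With SGC0946 over DMSO, 5 of the 10 were higher and 1 lower in sgUTX cells. There SLC7A8 rose by 2.60, SLC43A2 by 2.04 and SLC7A7 by 1.22. In sgLuc cells SLC7A7 rose by 3.89 and SLC43A2 by 3.29, where 6 of the 10 were higher and 2 lower, and the difference of the 2 responses was -2.68 for SLC7A7 (edgeR adjusted p = 3.45e-09) and -1.26 for SLC43A2 (edgeR adjusted p = 8.05e-06). Of 19 tested carriers of lysosomes and mitochondria, 11 were higher and 5 lower in sgUTX cells with DMSO, with a median of 0.31. SLC15A3, a lysosomal carrier of histidine and peptides, fell by 2.39, and SLC25A13, the mitochondrial aspartate-glutamate carrier, rose by 1.02.

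Genes that use or make the carried amino acids moved in both directions. With DMSO, 12 of 22 tested genes of amino acid synthesis and breakdown were higher with the UTX guides and 4 lower, with a median of 0.51. GPT2, the mitochondrial alanine transaminase, rose by 1.60 and PSAT1, of serine synthesis, by 1.41, while the arginase gene ARG1 fell by 4.24. With SGC0946, 10 of the 22 fell and 3 rose in sgUTX cells, and 14 fell and 3 rose in sgLuc cells. ASS1, of arginine synthesis, fell by 1.01 in sgUTX cells and fell by 3.26 in sgLuc cells (difference 2.25, edgeR adjusted p = 0.00461). Of 18 tested genes of cystine use and glutathione, 7 were higher and 8 lower in sgUTX cells with DMSO, with a median of -0.07. CHAC1, which breaks down glutathione, rose by 2.63, the largest change among these genes. The heme oxygenase gene HMOX1, a known NRF2 target, fell by 2.58. GLRX, a glutaredoxin, fell by 1.495, and GGT1, a gamma-glutamyltransferase, fell by 1.28.

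Of 18 genes in the ATF4 arm of the integrated stress response, sgUTX cells with DMSO had 7 higher and 5 lower than sgLuc cells, with a median of 0.08. SESN2, an inhibitor of mTORC1 signalling, rose by 1.75, TRIB3, a pseudokinase induced by ATF4, by 1.43 and ASNS, asparagine synthetase, by 1.40, while PPP1R15A, the stress-induced phosphatase subunit, fell by 1.41. With SGC0946, 10 of the 18 fell and 1 rose in sgUTX cells (median -0.41), and 7 fell and 4 rose in sgLuc cells (median -0.16). ATF3 fell by 1.22 in sgUTX cells and rose by 1.31 in sgLuc cells (difference -2.53, edgeR adjusted p = 7.14e-10). Of 26 tested genes of amino acid sensing by mTORC1, 8 were higher and 10 lower in sgUTX cells with DMSO, with a median of -0.22. RRAGA, a Rag GTPase, fell by 1.69, and MTOR rose by 1.12. The median over all genes tested was -0.01 in that comparison, and no list was tested as a set.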

How the data were processed

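RNA was sequenced as read pairs of 150 bases, per the labels' protocols. The deposited table holds raw counts per gene, which the authors left unnormalized. Alignment used STAR 2.5.1b and the build hg19 is named, per the submitters' processing notes. All 58735 identifiers of the table are nevertheless those of GENCODE 29, which annotates GRCh38, and the build behind the counts is therefore uncertain. How reads were counted, whether by strand, and what became of reads with more than 1 match is not stated in the labels or notes.

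Groups came from the sample labels. The tests were robust two-sided quasi-likelihood F-tests of edgeR 4.0.16 in R 4.3.3, with TMM factors and the filterByExpr filter. P-values from edgeR were adjusted by the Benjamini-Hochberg method over the 15060 genes kept and called under 0.05. The 12 libraries were fitted in 4 groups with the UTX guides as replicates (8 residual degrees of freedom), and in 6 groups for single guides (6 residual degrees of freedom). All 10 transporters passed the filter. The standard error is the size of the log2 fold change divided by the square root of F. The fit was tested on simulated data. DESeq2 1.42.0, other scalings, no filter, a replicate block and leaving out each library were alternatives.

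The transporters and the gene lists were chosen with earlier results of these data known. All 10 transporters were named. Of each further list, at most the 4 called genes with the largest absolute change and a mean of at least 1 CPM were named, and 3 genes by Pearson correlation for SLC7A5, SLC7A11 and SLC7A2. The labels do not tell whether the 2 libraries of a combination are separate cultures. The p-values therefore measure only the spread between libraries, which may be technical. They do not measure a spread between control guides, as only sgLuc was used. No 2 libraries of a group agreed within sampling noise (chi-square per gene 2.85 to 6.29).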

Additional observations from a re-analysis of the deposited data

Results flagged for a closer look

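Among 20 groups of 4 sgUTX libraries (10 transporters in 2 treatments), 2 had a highest library that stood apart from the other 3 by Dixon's test at the 95% level, and chance gives about 1 such group in 20. SLC7A2 was at 10.3 CPM in 1 sgUTX SGC0946 library, with the nearest of the others at 8.95 CPM. SLC1A5 was at 582 CPM in 1 sgUTX DMSO library, with the nearest of the others at 557 CPM. The response of SLC1A5 to SGC0946 differed between the genotypes by 0.30 on the log2 scale (sgUTX minus sgLuc, edgeR adjusted p = 0.0469). That call was lost in 15 of 19 alternatives.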

How the results depend on the processing

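The log2 fold changes of the 10 transporters were recomputed 710 times in all over the 5 main comparisons, and 648 kept their direction and their side of the threshold. In sgUTX against sgLuc all 130 values in SGC0946 and all 130 in DMSO did so. The difference of the SGC0946 responses was the least stable, with 15 of 190 values changing sign, and the cause was not tested. These were SLC1A4 at -0.0267 with DESeq2, -0.0872 with library size only, -0.0574 with no filter and -0.0273 with RLE size factors, and SLC7A2 at -0.0085 with library size only. Leaving out a library, the difference ran from -0.0243 to 0.0364 for SLC1A4, -0.21 to 0.00271 for SLC3A2, -0.0803 to 0.00784 for SLC7A1 and -0.19 to 0.43 for SLC7A2. The transporters called for this difference numbered 5 with 6 groups and guides averaged, 3 with DESeq2, 3 with no filter and 0 to 2 leaving out a library, against 1. Between the guides, 1 transporter was called in DMSO with no filter, and in SGC0946 3 with no filter, 1 with the replicate block and 0 to 5 leaving out a library, against 0. Genes called between the guides ran from 90 to 373 in SGC0946 and from 89 to 694 in DMSO when a library was left out, against 454 and 526. The replicate numbers did not pair the libraries (15 correlations of same-numbered deviations, -0.11 to 0.07), and the replicate block gave SLC1A5 a difference of 0.30 (adjusted p = 0.0607) and SLC6A9 one of 1.57 (adjusted p = 0.0449). With library size only, 60.9% of the genes called for SGC0946 in sgLuc cells were higher, against 50.6%. SLC7A2 and SLC6A9 had as few as 15 and 18 counts in sgLuc SGC0946 libraries, which limits the precision of their folds.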
